A study of Mus musculus with 2 samples.

Results

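The mitosis and spindle genes are 32 genes, chosen by symbol, of the 32285 genes counted in these libraries. All 32 symbols were found, and each symbol matched 1 gene. The genes were followed through cells of the mouse uterus after doxorubicin, a chemotherapy drug of the anthracycline class that breaks DNA. One group of mice, DOX, received doxorubicin at 3 mg/kg, and the other, DOX plus AMH, received doxorubicin at 3 mg/kg together with anti-Müllerian hormone (AMH) at 0.75 mg/kg. Uteri were collected 4 h after treatment, and the uteri of 5 animals went into 1 library of droplet-captured single cells per group, so both groups carry doxorubicin and no untreated library was analysed here. The series text names prepubertal mice of postnatal day 25 and 2 weekly doses for its bulk sequencing, and whether that schedule holds for these animals is not stated. Each group is 1 library, so no difference could be tested, and every interval given here is a 95% interval that covers counting error only. Differences between the animals, the dissociation or the library of each group cannot be told apart from the treatment.

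A cell that enters mitosis has copied its DNA, and it then builds up Cdk1 with its cyclins, which drive chromosome condensation, spindle assembly and kinetochore attachment. The checkpoint kinases hold the anaphase-promoting complex back until every chromosome is attached, after which Cdc20 and Ube2c help it to destroy the cyclins. Transcripts of most of these genes build up in G2 and are low in G1 and in resting cells, and in a damaged cell the p53 pathway can switch the whole set off through the DREAM repressor complex. In the uterus, epithelium, stroma and muscle layers all grow before puberty.

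Promoters of such genes are known for a pair of short elements, the CHR (TTTGAA), where DREAM and its activating relatives bind, and CCAAT boxes, where NF-Y binds. RefSeq promoter windows on GRCm38.p6, which run from 250 bases before to 50 bases after the start of the gene, were found for 27 of the 32 genes (28 windows, as Prc1 has a pair). Aurkb, Smc4, Ccna2, Tpx2 and Kif20a had no entry. Read on either strand, TTTGAA occurred in windows of 20 of the 27 genes, which is 75% of their windows against 17.9% of all 32851 windows. CCAAT occurred in 23 of the 27, which is 85.7% of their windows against 37.4% of all. Both motifs stood together in windows of 18 genes, or 67.9% of the windows against 6.95% of all. The motifs can share bases at their ends, though no matches do in the windows printed, and a match is a description of the letters only. A set of 6 windows is printed 5′ to 3′ on the strand of the gene, from 120 bases before to 15 bases after the start, with every TTTGAA or CCAAT match in capitals (TTCAAA and ATTGG are the matches on the other strand). They were chosen after the values had been seen, as genes of several roles that were at least 2-fold lower in stromal-like cells, with Ckap2 added because its level outside dividing cells stood apart.
Ccnb2 (chr9:70421540-70421674, minus strand): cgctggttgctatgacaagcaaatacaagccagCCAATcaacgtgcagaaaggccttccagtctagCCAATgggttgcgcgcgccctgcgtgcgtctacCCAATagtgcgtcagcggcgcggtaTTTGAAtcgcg
Cdk1 (chr10:69352898-69353032, minus strand): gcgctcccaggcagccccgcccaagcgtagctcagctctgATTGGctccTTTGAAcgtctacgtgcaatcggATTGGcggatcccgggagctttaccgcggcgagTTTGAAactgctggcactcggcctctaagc
Hmmr (chr11:40733423-40733557, minus strand): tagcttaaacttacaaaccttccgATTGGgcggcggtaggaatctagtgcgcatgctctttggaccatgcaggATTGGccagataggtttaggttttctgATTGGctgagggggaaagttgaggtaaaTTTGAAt
Cenpf (chr1:189688072-189688206, minus strand): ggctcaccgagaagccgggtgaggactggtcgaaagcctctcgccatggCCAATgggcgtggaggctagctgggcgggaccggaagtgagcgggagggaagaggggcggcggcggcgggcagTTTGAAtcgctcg
Ube2c (chr2:164769809-164769943, plus strand): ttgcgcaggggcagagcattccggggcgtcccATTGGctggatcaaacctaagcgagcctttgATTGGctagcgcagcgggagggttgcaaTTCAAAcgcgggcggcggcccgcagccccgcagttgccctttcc
Ckap2 (chr8:22185805-22185939, minus strand): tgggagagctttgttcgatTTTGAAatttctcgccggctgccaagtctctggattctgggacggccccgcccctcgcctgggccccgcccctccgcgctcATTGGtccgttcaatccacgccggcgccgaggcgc

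In the printed bases of Ccnb2 the CCAAT matches began at positions -87, -54 and -21 and TTTGAA at position 5. Positions count 1 as the first transcribed base, with no position 0. The Hmmr window repeated that order, with CCAAT matches at -96, -47 and -20 and TTTGAA at 9. Cdk1 carried TTTGAA at both -71 and -15, and Ube2c carried it at -29. In Ckap2 the order was turned around, with TTTGAA upstream at -101 and a single CCAAT match at -20.

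The libraries held 129530270 and 97887259 UMIs (unique molecular identifiers, each standing for 1 captured transcript) in 9258 and 8083 barcodes, the first value being that of DOX here and in all pairs of values in the text. After filtering, 7387 and 6787 cells were kept, at median depths of 13739 and 10109 UMIs, and 13 of the kept barcodes occurred in both libraries. Cells were put into classes by a score over 7 marker genes per class, and a class is called like its cell type only. Of these classes, 7 had at least 50 cells in both libraries and were compared: stromal-like (4924 and 3705 cells), smooth muscle-like (983 and 1182), pericyte-like (81 and 136), vascular endothelial-like (128 and 228), epithelial-like (318 and 187), mesothelial-like (79 and 115) and macrophage or monocyte-like (262 and 201). Squamous-like cells numbered 6 and 400, so the 2 tissue preparations differed in what they held, and 446 and 450 cells stayed without a class.

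The 32 genes were lower after DOX plus AMH in stromal-like and in smooth muscle-like cells, and their sum was not lower in epithelial-like cells. Levels are CPM, the UMIs of a gene per 1000000 UMIs of its class and library, and a log2 ratio divides the DOX plus AMH level by the DOX level. Summed over the 32 genes, the stromal-like cells had 774 CPM in DOX (interval 767 to 780) and 296 CPM in DOX plus AMH (291 to 302), a log2 ratio of -1.38 (-1.41 to -1.36). In the smooth muscle-like cells the sum was 998 CPM (979 to 1017) against 246 CPM (237 to 255), a log2 ratio of -2.02 (-2.08 to -1.96). Hmgb2, Smc4 and Ckap2 carry many of these UMIs outside dividing cells, and the other 29 genes alone gave 513 and 137 CPM in stromal-like cells (log2 ratio -1.90) and 608 and 73.9 CPM in smooth muscle-like cells (log2 ratio -3.04). That choice of 29 was made after seeing the data.

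Read gene by gene, 30 of the 32 were at least 2-fold lower in stromal-like cells and none was at least 2-fold higher, while of the 18419 genes with at least 20 UMIs over both libraries 2.35% were that much lower and 5.75% that much higher. In smooth muscle-like cells 29 of 32 were at least 2-fold lower and none higher, against 3.55% and 3.81% of 14750 genes. The median log2 ratio was -1.83 over the 32 genes in stromal-like cells, where the median of all genes was 0.17, and -3.24 in smooth muscle-like cells, where it was 0.12. Normalisation by TMM shifted every ratio by -0.20 in the stromal-like class and by -0.11 in the smooth muscle-like class and changed no direction in these classes.

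The cyclins and partners of Cdk1 were lower together in stromal-like cells. Cdk1, the kinase that drives entry into mitosis, stood at 19.9 CPM in DOX and 6.10 CPM in DOX plus AMH (log2 ratio -1.71, interval -1.91 to -1.51). Its mitotic partners Ccnb1 and Ccnb2 had 6.87 and 1.48 CPM (log2 ratio -2.21) and 16 and 3.40 CPM (log2 ratio -2.24). Mouse annotation holds a processed pseudogene of each, which the libraries do not list. How reads that fit both copies were counted was not examined. Ccna2, the cyclin of S phase and early mitosis, had 8.36 and 2.21 CPM, and Cks2, a small subunit that docks on the kinase, had 27.9 and 9.60 CPM (log2 ratios -1.92 and -1.54). All 5 were at least 2-fold lower in smooth muscle-like cells as well, with log2 ratios from -4.36 for Ccnb1 to -1.84 for Cks2.

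Among the mitotic kinases, Plk1, which matures the spindle poles, had 5.15 CPM in DOX and 1.17 CPM in DOX plus AMH. Aurka, a kinase of the spindle poles, had 5.49 and 1.53 CPM. Aurkb and Birc5 belong to the chromosomal passenger complex, which corrects wrong attachments, and had 8.10 and 2.67 CPM and 28.3 and 6.51 CPM. The 4 log2 ratios ran from -2.14 (Plk1) to -1.60 (Aurkb) in stromal-like cells and from -4.29 (Plk1, 70 and 4 UMIs) to -3.21 (Aurkb, 116 and 14 UMIs) in smooth muscle-like cells.

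Kinetochore and checkpoint genes spread more widely. Cenpe, a motor that carries chromosomes along the spindle, had the lowest ratio of all 32 in stromal-like cells, 18.1 CPM in DOX against 2.62 CPM in DOX plus AMH (log2 ratio -2.78, interval -3.08 to -2.50). Cenpf, a large protein of the outer kinetochore, had 46.2 and 8.94 CPM (log2 ratio -2.37). Cenpa, the histone H3 variant that marks the centromere, had 28.9 and 7.10 CPM (log2 ratio -2.03). Of the plate that grips the microtubules, Knl1 had 14.9 and 4.23 CPM, Spc25 12.9 and 3.60 CPM and Ndc80 5.16 and 2.33 CPM (log2 ratios -1.82, -1.85 and -1.14). The checkpoint kinases Bub1 and Ttk had 4.88 and 1.48 CPM and 3.26 and 1.02 CPM (log2 ratios -1.72 and -1.67). Bub1b, which blocks Cdc20 while chromosomes are unattached, had the smallest difference of this set, 8.62 and 3.99 CPM (log2 ratio -1.11). In smooth muscle-like cells Bub1b, at 12.1 and 6.51 CPM, was 1 of the 3 genes that did not reach a 2-fold difference.

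Motor and spindle genes were all at least 2-fold lower in both classes. In stromal-like cells Kif11, the motor that pushes the spindle poles apart, had 14.8 and 5.01 CPM, and the cytokinesis motors Kif20a and Kif23 had 5.33 and 1.73 CPM and 13.8 and 3.79 CPM. Prc1, which bundles the microtubules of the central spindle, had 43.0 and 9.89 CPM, and Diaph3, a formin that builds actin filaments, had 31.7 and 9.31 CPM. The spindle assembly factors Tpx2, Nusap1 and Hmmr had 17.5 and 6.32, 21.9 and 9.28, and 19.4 and 3.89 CPM. Their log2 ratios ran from -2.32 (Hmmr) to -1.24 (Nusap1). Ckap2, a microtubule-binding protein of the spindle, had 63.0 and 16.6 CPM in stromal-like cells (log2 ratio -1.93, interval -2.04 to -1.81) and 134 and 18.8 CPM in smooth muscle-like cells (log2 ratio -2.83, interval -3.04 to -2.62).

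For exit from mitosis, Cdc20, which activates the anaphase-promoting complex, had 11.1 and 2.84 CPM in stromal-like cells, and Ube2c, the enzyme that passes ubiquitin to that complex, had 35.0 and 6.76 CPM (log2 ratios -1.96 and -2.37). Ube2c had the lowest ratio of the 32 in smooth muscle-like cells, 53.6 against 2.20 CPM (567 and 26 UMIs, log2 ratio -4.61, interval -5.23 to -4.04). Chromosome structure genes split. Mki67, which coats mitotic chromosomes and is used as a marker of dividing cells, had 30.1 and 8.63 CPM in stromal-like cells and 32.9 and 2.20 CPM in smooth muscle-like cells. Smc4, a subunit of condensin, had 47.2 and 30.2 CPM in stromal-like cells (log2 ratio -0.64, interval -0.74 to -0.55) and Hmgb2, a DNA-bending protein, had 151 and 112 CPM (log2 ratio -0.43, interval -0.48 to -0.38). Both also missed a 2-fold difference in smooth muscle-like cells, with log2 ratios of -0.74 each.

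**Figure D1:**
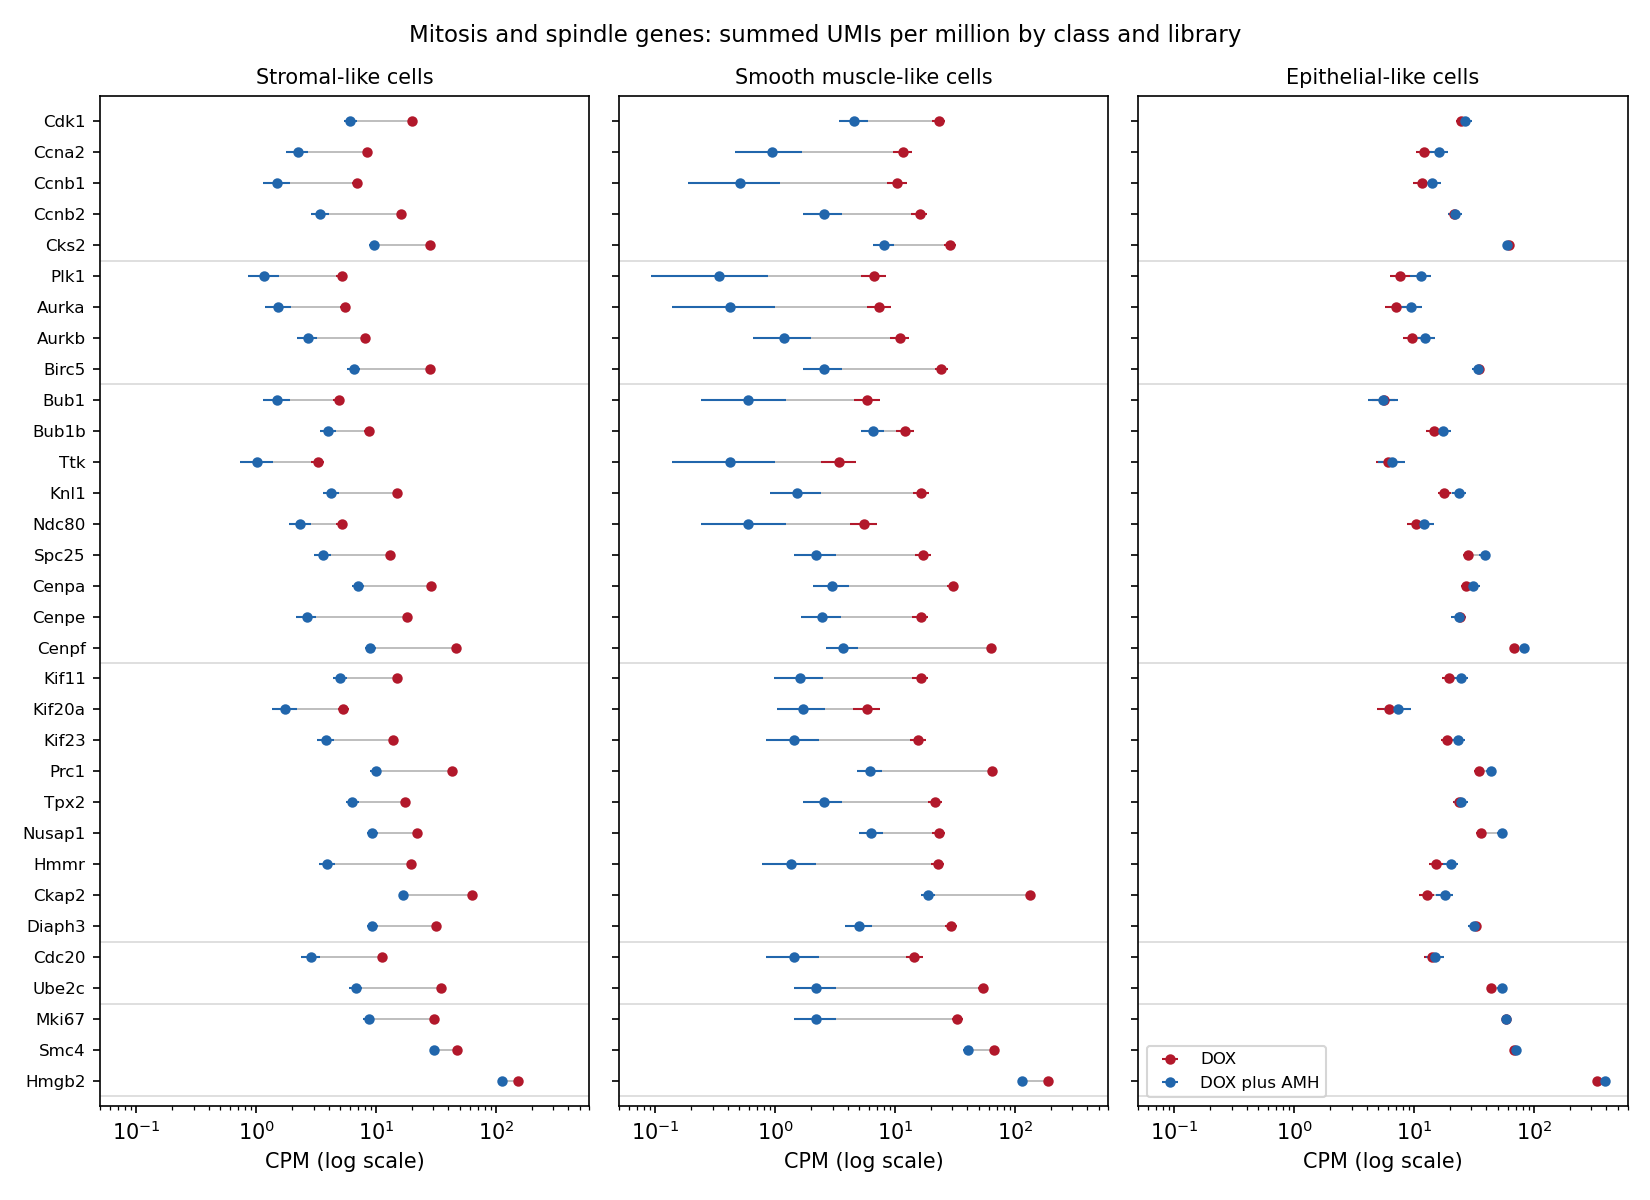
CPM of each of the 32 genes (log axis) in stromal-like, smooth muscle-like and epithelial-like cells of the DOX (red) and DOX plus AMH (blue) library, with 95% counting intervals; thin lines separate the roles in the order of the text. In the first and second panel every blue point lies left of its red point, and in the epithelial panel 27 of the 32 lie right of it.

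In epithelial-like cells the summed level was slightly higher, while the share of cells with a UMI was lower for most of the genes (24 of 32 at equal depth). That count was not made over all genes. None of the 32 genes was 2-fold apart in either direction, against 2.04% lower and 6.1% higher among 14547 genes. The sum was 1108 CPM in DOX (1091 to 1125) and 1279 CPM in DOX plus AMH (1255 to 1302), a log2 ratio of 0.21 (0.17 to 0.24). Log2 ratios ran from -0.06 for Diaph3 to 0.58 for Nusap1, with 57.7 and 58.4 CPM for Mki67 and 24.6 and 26.5 CPM for Cdk1. Hmgb2 (335 and 388 CPM), Smc4 (67.4 and 70.5 CPM) and Cenpf (67.4 and 82.5 CPM) held the most UMIs, and Ckap2 had 12.8 and 17.9 CPM. The 5 cells with the most UMIs of these genes held 20.4% of them in DOX and 37.3% in DOX plus AMH, and without the top cell of each library the log2 ratio of the sum was 0.13. The difference between classes was not tested.

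In the smaller classes single cells weighed more, and the levels lay closer together except in pericyte-like cells. Vascular endothelial-like cells had sums of 1100 and 1149 CPM (log2 ratio 0.06, interval -0.01 to 0.14), and 1 of the 32 genes was at least 2-fold lower (3.39% of 11774 genes) and none higher (3.01%). That gene was Ckap2, at 34.1 and 14.0 CPM, while Nusap1 had the highest ratio at 23.3 and 41.8 CPM. In the DOX plus AMH library 5 cells held 58.8% of the UMIs of the 32 genes in this class. Classes taken from clusters in place of the marker score gave a log2 ratio of -0.34 for the sum here, the opposite sign. Mesothelial-like cells had sums of 787 and 857 CPM (log2 ratio 0.12, interval 0.03 to 0.21), with none of 29 measured genes at least 2-fold lower (6.17% of 12067 genes) and 3 at least 2-fold higher (5.8%). The 3 were Aurka (4 and 20 UMIs), Ccnb2 (22 and 77 UMIs) and Ube2c (31 and 92 UMIs). A stricter marker score turned the sum of this class to a log2 ratio of -0.06 and left none of the genes at least 2-fold higher, while cluster-based classes gave 6.

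Macrophage or monocyte-like cells had sums of 561 and 531 CPM (log2 ratio -0.08, interval -0.19 to 0.03). Of 27 measured genes 3 were at least 2-fold lower (4.22% of 10557 genes) and 2 higher (5.54%). Cenpe was lowest, at 47 and 9 UMIs, followed by Ckap2 and Hmmr, while Bub1b was highest, at 8 and 19 UMIs, and Ccnb1 was the other gene past 2-fold (7 and 14 UMIs). Pericyte-like cells had sums of 965 and 527 CPM (log2 ratio -0.87, interval -1.04 to -0.70), with 6 of 14 measured genes at least 2-fold lower (3.59% of 8432 genes) and none higher (5.14%). Cenpf was lowest, with 51 and 18 UMIs, and Tpx2 highest, with 13 and 17 UMIs. A single cell in each library held 47.9% and 56.5% of the UMIs of the 32 genes in this class, and without these cells the log2 ratio was -1.13. Only 56.2% of the cells kept this class by cluster, and cluster-based classes gave a log2 ratio of -2.41 with 12 genes at least 2-fold lower.

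A sum over a class mixes how many cells divide with how much each of them holds. Dividing cells were therefore counted with 55 other mitosis genes, such as Top2a and Kif4, of which none is among the 32. Every cell of at least 5000 UMIs was thinned to 5000, and a cell with at least 3 of the 55 was counted as dividing. In stromal-like cells 6.60% of 4773 cells (interval 5.91 to 7.34%) were dividing in DOX and 2.38% of 3441 (1.90 to 2.95%) in DOX plus AMH. In smooth muscle-like cells the shares were 5.90% of 881 (4.44 to 7.67%) and 2.87% of 1047 (1.94 to 4.07%). Cells with 3 or 4 of the 55 genes made up 125 of the 315 and 58 of the 82 dividing stromal-like cells, and 27 of the 52 and 29 of the 30 in the smooth muscle-like class. Dividing cells held a median of 9 and 1 of the 32 genes in stromal-like cells and 3.5 and 1 in smooth muscle-like cells.

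With at least 5 of the 55 genes the shares were 3.98% (190 cells) and 0.697% (24 cells) for the stromal-like class, and 2.84% (25 cells) and 0.0955% (1 cell) for the smooth muscle-like class. These cells held medians of 18.5 and 18 of the 32 genes in the stromal-like class and 21 and 25 in the smooth muscle-like class. With at least 10 genes the shares came only somewhat lower, to 3.16% and 0.465% for the stromal-like and 2.72% and 0.0955% for the smooth muscle-like class.

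**Figure D2:**
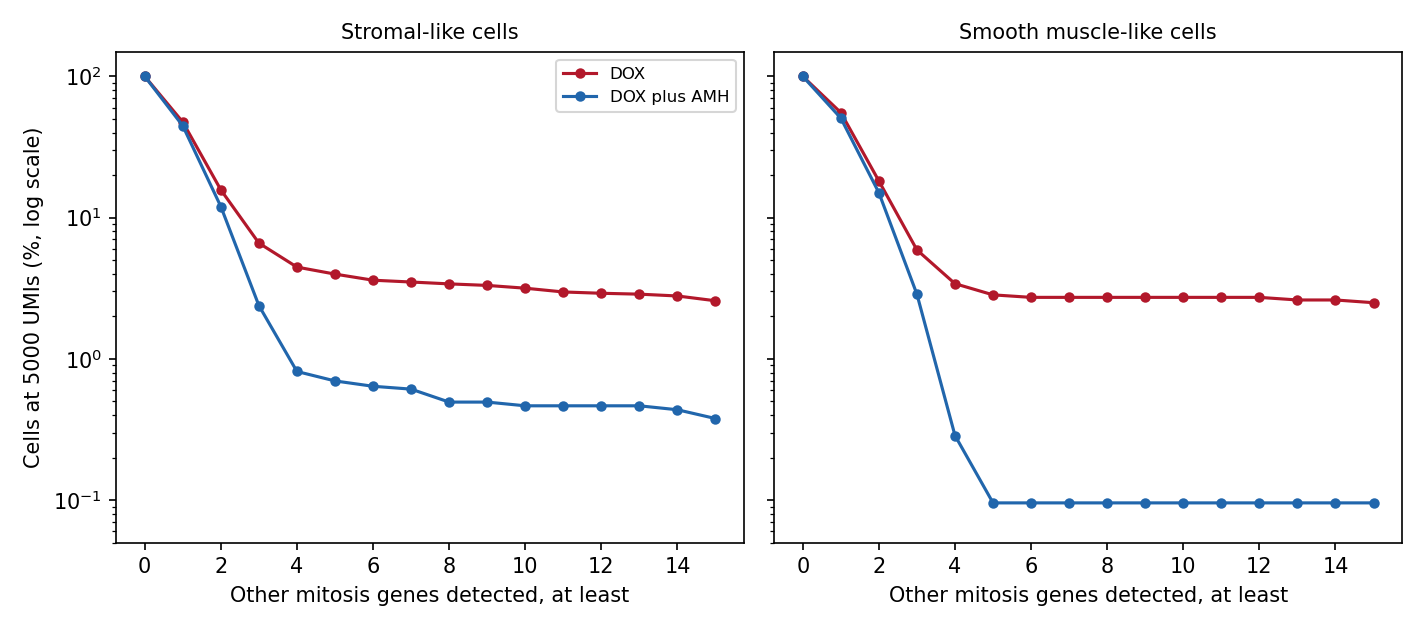
Share of stromal-like (left) and smooth muscle-like (right) cells, on a log axis, with at least the number of the 55 other mitosis genes on the x axis, each cell thinned to 5000 UMIs; red is DOX and blue DOX plus AMH. The curves lie close up to 2 genes and part from 3 genes on, and from 5 genes the smooth muscle-like line of DOX plus AMH is 1 cell.

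The other classes held larger shares of dividing cells in DOX at 3 genes, but not all did at 5. The macrophage or monocyte-like share in DOX was then 2.39%, below the stromal-like 3.98% and the smooth muscle-like 2.84%. At 3 genes the epithelial-like shares were 21.4% (16.8 to 26.6%) and 16.4% (11.2 to 22.8%), the mesothelial-like shares 20% (11.6 to 30.8%) and 19.6% (12.7 to 28.2%), and the macrophage or monocyte-like shares 10.0% (6.33 to 14.9%) and 10.1% (5.90 to 15.9%), with intervals that overlap in each. The vascular endothelial-like shares were 25.6% (16.9 to 35.8%) and 11.7% (7.41 to 17.4%), with intervals that just overlap. Their summed level was close by the marker score (log2 ratio 0.06) and lower by cluster-based classes (-0.34). Pericyte-like cells had 13.4% (9 of 67 cells) and 4.35% (4 of 92 cells). Of the cells with no class, 22.1% (64 of 290) and 9.25% (26 of 281) were dividing, so the marker score left some dividing cells out.

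**Figure D3:**
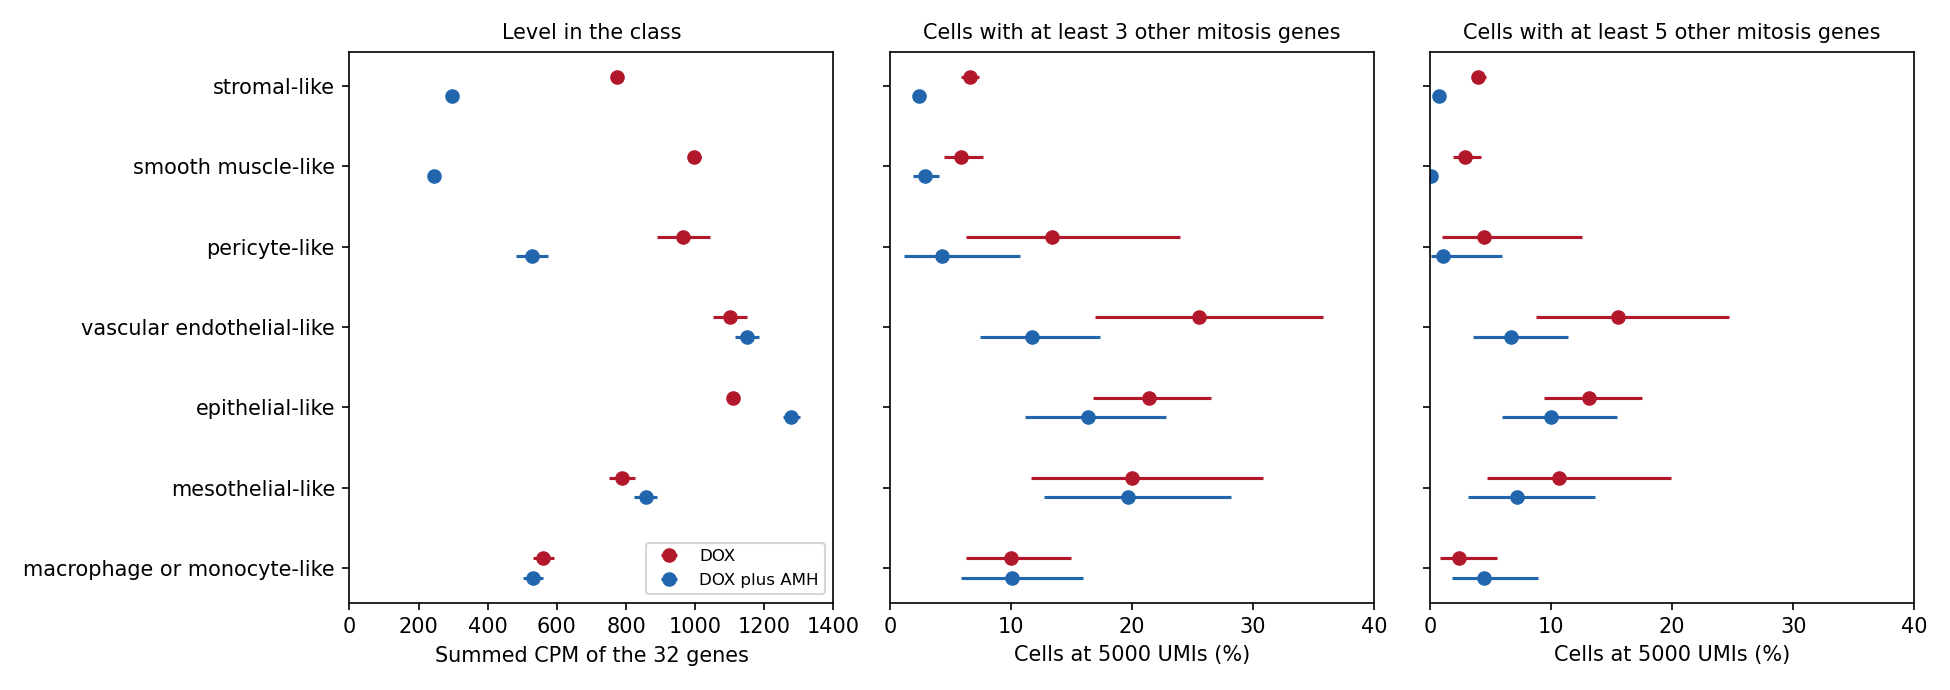
Summed CPM of the 32 genes (left) and share of cells thinned to 5000 UMIs with at least 3 (middle) or at least 5 (right) of the 55 other mitosis genes, for the 7 compared classes; red is DOX, blue DOX plus AMH, and bars are 95% counting intervals. Stromal-like, smooth muscle-like and pericyte-like cells are lower after DOX plus AMH in all 3 panels. Vascular endothelial-like, epithelial-like and mesothelial-like cells are lower in the middle and right panel only, with intervals that overlap in the middle panel.

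The shares of cells with a UMI of single genes followed at equal depth. Mki67 was found in 4.46% and 1.19% of stromal-like cells thinned to 5000 UMIs (6.84% and 2.02% before thinning), and in 3.52% and 0.382% of smooth muscle-like cells (5.09% and 1.02%). Free RNA in the droplets adds UMIs to cells that do not make a transcript. No class here is known to lack the gene, so its background share was not measured. Pericyte-like cells, with a larger dividing share at 3 genes than either class in DOX, had 2.99% and 1.09% (2 of 67 and 1 of 92 cells). Median depths were 14755 and 10202 UMIs in stromal-like, 10379 and 9104 in smooth muscle-like and 7401 and 6365 in pericyte-like cells. Shares were lower after DOX plus AMH for 31 of the 32 genes in stromal-like cells and for 28 in smooth muscle-like cells, but also for 24 each in epithelial-like, vascular endothelial-like and pericyte-like cells and for 21 in mesothelial-like cells. In macrophage or monocyte-like cells 11 were lower and 21 higher. Such counts were not made over all genes, and many pericyte-like shares in DOX plus AMH rest on 1 of 92 cells. Hmgb2 was the exception in stromal-like cells, with 29.8% (28.5 to 31.1%) and 32.8% (31.2 to 34.4%), while its share in pericyte-like cells was 32.8% and 46.7%. Smc4 was found in 13.2% and 11% of stromal-like cells and in 37.3% and 20.7% of pericyte-like cells. In epithelial-like cells the share with Mki67 was 15.5% (11.5 to 20.2%) and 9.94% (5.90 to 15.4%).

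Levels within dividing and other stromal-like cells of at least 5000 UMIs were then read from the unthinned counts. Dividing cells held 79.0% of all UMIs of the 32 genes in DOX and 48.0% in DOX plus AMH. Their summed level was 6489 and 4151 CPM, a log2 ratio of -0.64 (-0.68 to -0.61), and all 32 genes had ratios below 0. Taking only cells with at least 5 of the 55 genes ended that difference. The sum was then 8940 and 9658 CPM, a log2 ratio of 0.11 (0.07 to 0.15), and the 29 genes without Hmgb2, Smc4 and Ckap2 gave a log2 ratio of 0.00 (-0.05 to 0.05). In these cells 13 genes had ratios below 0 and 19 above. The widest gaps below were Cenpa at 360 and 190 CPM (log2 ratio -0.92, interval -1.22 to -0.64), Cenpe at 220 and 125 CPM (-0.81, -1.18 to -0.47), Plk1 at 70.7 and 47.0 CPM (-0.59, -1.21 to -0.02) and Ckap2 at 449 and 304 CPM (-0.56, -0.79 to -0.34). Those above were Hmgb2 (log2 ratio 0.66, interval 0.57 to 0.75), Ndc80 at 73.3 and 115 CPM (0.65, 0.25 to 1.03) and Aurkb at 116 and 172 CPM (0.57, 0.25 to 0.88). Only 24 cells stand behind the DOX plus AMH values, and their spread is not in the intervals.

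Smooth muscle-like cells counted as dividing with at least 3 genes had a summed level of 8431 and 1581 CPM (log2 ratio -2.41), and all 32 ratios were below 0. Of these cells, 27 of 52 in DOX and 29 of 30 in DOX plus AMH held fewer than 5 of the other mitosis genes. The counted cells held a median of 3.5 and 1 of the 32 genes. The gap at 3 genes therefore cannot be read as a fall per dividing cell. With at least 5 genes the ratio turned to 0.75, where the DOX plus AMH value is that of 1 cell. In the dividing epithelial-like cells (62 and 28 cells) the sum was 2759 and 3820 CPM (log2 ratio 0.47) and all 32 ratios were above 0. In DOX plus AMH 5 cells held 37.3% of the UMIs of the 32 genes in the epithelial-like class, which the intervals do not cover. Counts of ratios above or below 0 were not made over all genes inside dividing cells of any class. In the other epithelial-like cells the 29 genes without Hmgb2, Smc4 and Ckap2 had 158 and 98.5 CPM (log2 ratio -0.68, interval -0.82 to -0.55). With the line drawn at 5 genes that ratio was -0.21 (-0.30 to -0.11), and the sum inside had a ratio of 0.31.

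**Figure D4:**
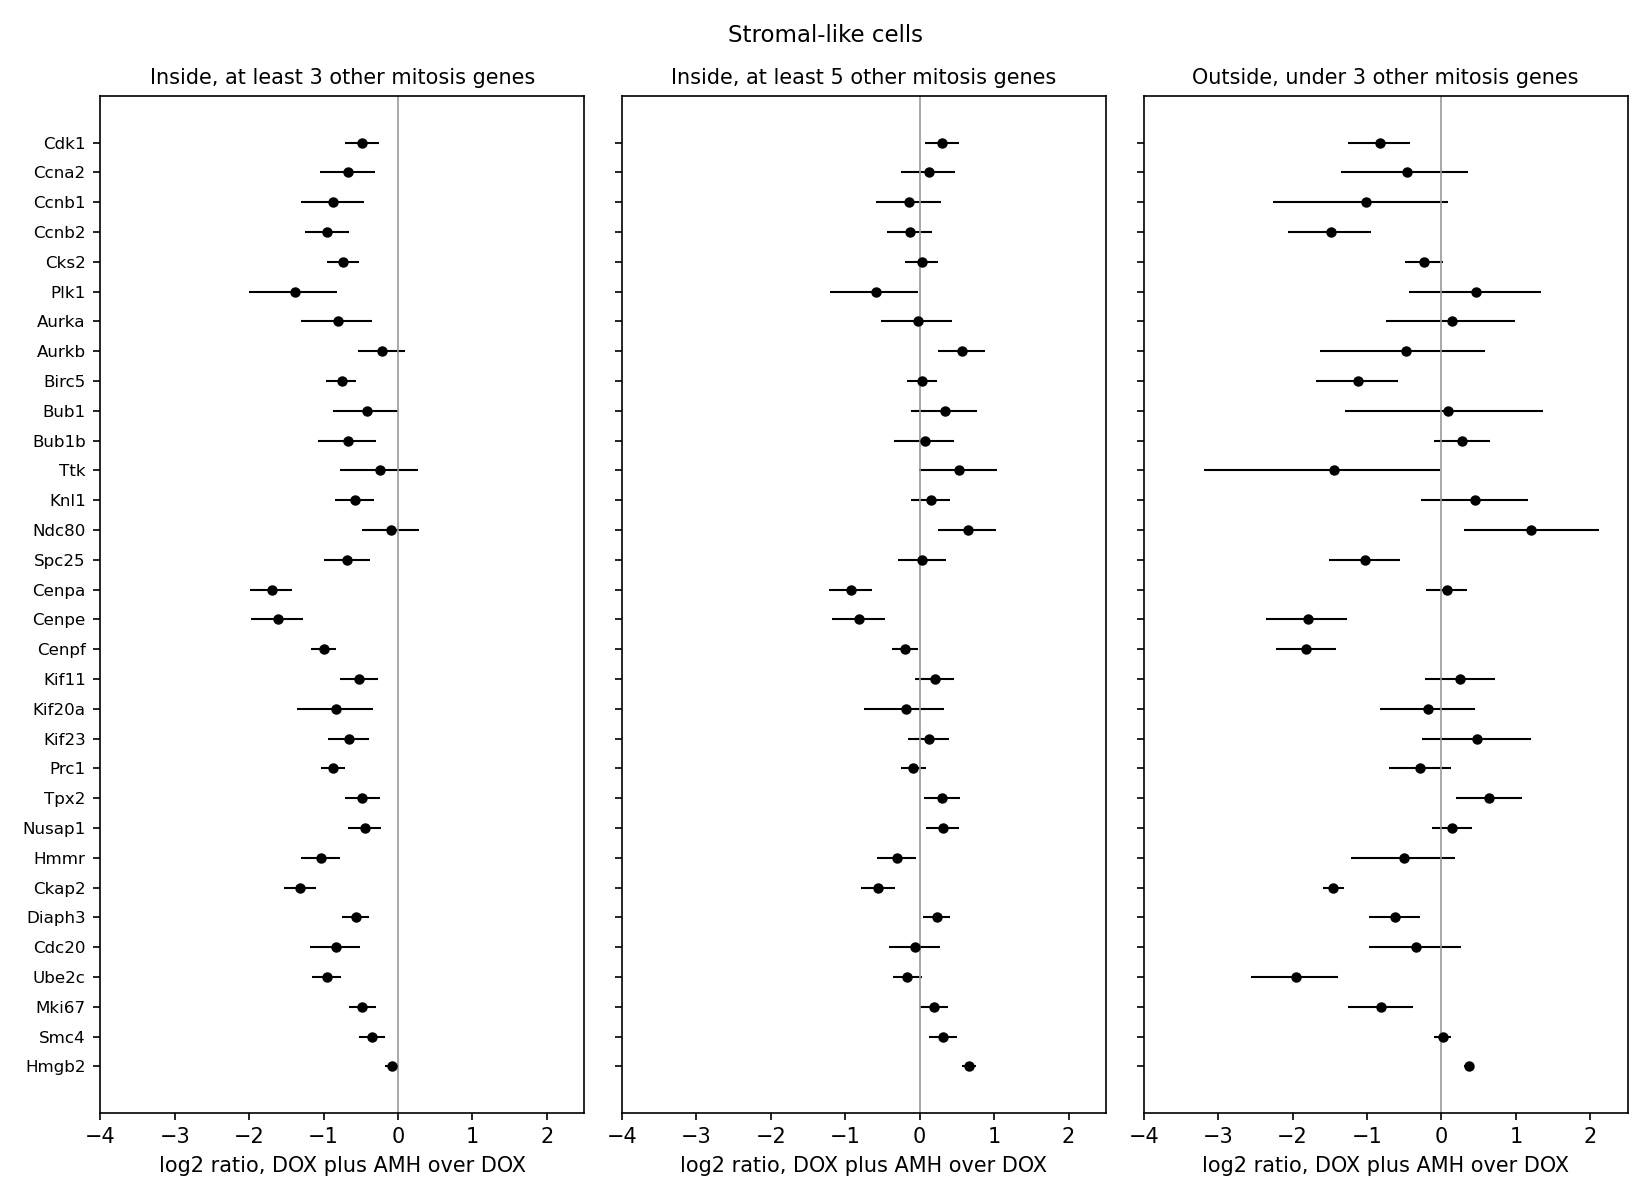
Log2 ratio, DOX plus AMH over DOX, of each of the 32 genes in stromal-like cells with at least 3 of the 55 other mitosis genes (left), at least 5 (middle) and under 3 (right), with 95% counting intervals. The left panel lies below 0, the middle one is centred near 0, with Cenpa, Cenpe, Plk1 and Ckap2 lowest, and in the right panel Ube2c, Cenpf, Cenpe and Ckap2 are low while Hmgb2 is not.

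Outside the dividing cells the genes went separate ways. Ckap2 had 33.4 CPM in DOX and 12.2 CPM in DOX plus AMH in stromal-like cells (2290 and 474 UMIs, log2 ratio -1.45, interval -1.60 to -1.31), and these cells held 48.1% and 71.0% of its UMIs. In smooth muscle-like cells outside division it had 83.3 and 16.2 CPM (780 and 180 UMIs, log2 ratio -2.36, interval -2.60 to -2.12). At 5000 UMIs, 13.7% and 3.43% of stromal-like and 24.2% and 4.78% of smooth muscle-like cells had a Ckap2 UMI, against 14.9% and 2.17% of pericyte-like cells. Mesothelial-like cells outside division had 92.5 and 76.3 CPM, with intervals of 77.6 to 109 and 64.8 to 89.2, and 36.0% and 33.9% of all mesothelial-like cells had a UMI. Over all cells of that class Ckap2 had 126 and 90.1 CPM (log2 ratio -0.49, interval -0.74 to -0.24). Epithelial-like cells outside division had 3.04 and 0.929 CPM, so the level of Ckap2 differed between classes of 1 library by far more than counting error.

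Hmgb2 outside dividing cells was higher after DOX plus AMH, with 64.9 and 83.7 CPM in stromal-like cells (log2 ratio 0.37, interval 0.30 to 0.43) and 72.4 and 105 CPM in smooth muscle-like cells (log2 ratio 0.54, interval 0.40 to 0.68). Smc4 had 23.6 and 23.9 CPM in stromal-like cells (log2 ratio 0.02, interval -0.10 to 0.13). Among genes of low level there, Cenpf had 5.61 and 1.60 CPM, Ube2c 2.99 and 0.773 CPM and Cenpe 3.03 and 0.876 CPM in stromal-like cells, each with an interval below a log2 ratio of -1, while Cenpa had 4.28 and 4.51 CPM. Free RNA adds to levels this low in a way that follows each library, and its part in them was not tested.

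**Figure D5:**
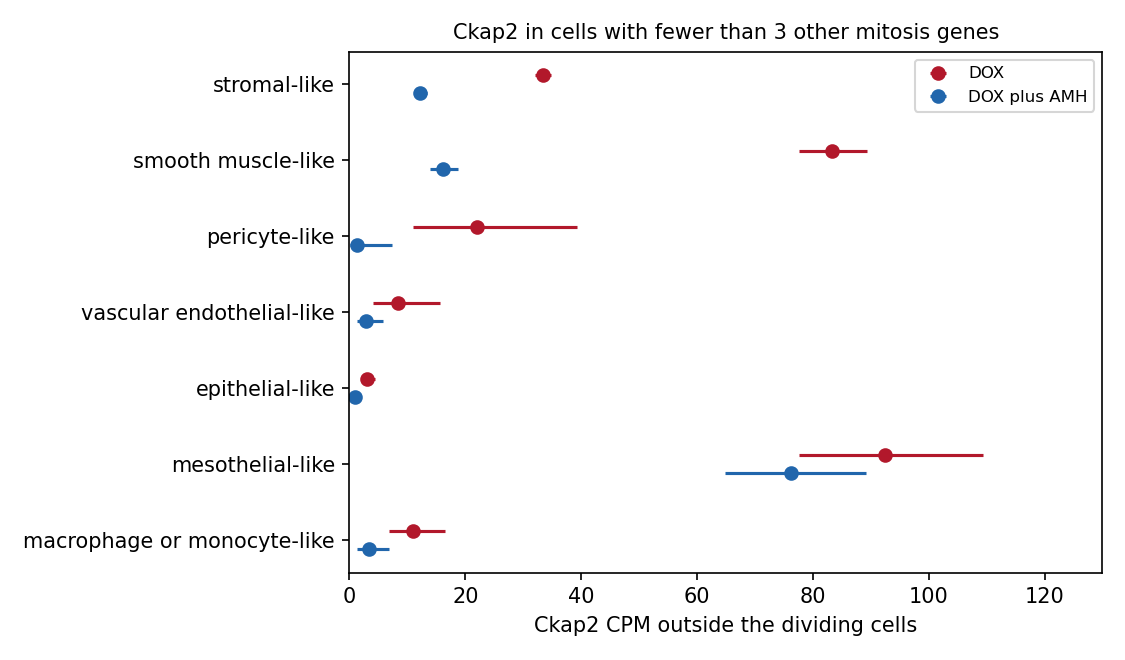
CPM of Ckap2 in cells with fewer than 3 of the 55 other mitosis genes, by class, in DOX (red) and DOX plus AMH (blue), with 95% counting intervals. Stromal-like and smooth muscle-like cells fall well apart (33.4 and 12.2, 83.3 and 16.2 CPM), and mesothelial-like cells stay close (92.5 and 76.3 CPM).

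Other genes of the cell cycle were set beside the 32. Of the 55 other mitosis genes, the stromal-like class had 48 and the smooth muscle-like class 50 at least 2-fold lower, and the epithelial-like class had none. Top2a, the enzyme that untangles sister chromatids and is a target of doxorubicin, had 62.3 and 19.1 CPM in stromal-like cells. Troap and Nek2 were lowest there (log2 ratios -2.52 and -2.35), while Pttg1 and Cdc25b were highest (-0.23 and 0.27). S phase genes differed less, with 4 of 30 at least 2-fold lower in stromal-like cells, against 2.35% of all genes. Under TMM 7 of them were, and the share of all genes was not counted there. In smooth muscle-like cells 5 of 28 measured were at least 2-fold lower, against 3.55%. Ratios in stromal-like cells ran from Mcm10 and Uhrf1 (log2 ratios -1.60 and -1.27) to Ccne2 and Pola1 (0.26 each). In vascular endothelial-like cells all 27 measured S phase genes had ratios above 0, with a median of 0.56 against 0.02 over all genes. The count above 0 was not made over all genes. It was also not repeated with cluster-based classes, which turned the sum of the 32 genes to a log2 ratio of -0.34 in this class. A further list of 18 genes held the DREAM complex, cell cycle exit genes and the G1 cyclins and kinases Ccnd1, Ccnd2, Ccnd3, Cdk4 and Cdk6, which act in cell cycle entry. None of the 18 was 2-fold apart in stromal-like or smooth muscle-like cells. In stromal-like cells Rbl1 and Ccnd1 were lowest and Cdkn1c and Ccnd3 highest (log2 ratios -0.38, -0.19, 0.42 and 0.57).

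Of 25 known p53 targets, 21 had ratios below 0 in stromal-like cells. Such a count was not made over all genes, whose median log2 ratio was 0.17. At least 2-fold lower were 2 of the 25 targets (Gdf15 and Gtse1, the latter also a mitosis gene) against 2.35% of all genes, and 1 was higher (Perp) against 5.75%. The count lower was 7 under TMM, as Aen, Bax, Sesn2, Cdkn1a and Ccng1 lay just short of 2-fold, Ccng1 furthest at a log2 ratio of -0.89. The share of all genes past 2-fold under TMM, which shifts every ratio of the class, was not counted. In smooth muscle-like cells 15 were lower, against 3.55% of all genes. Cdkn1a, the p53-induced inhibitor of cyclin-dependent kinases, had 170 and 87.6 CPM in stromal-like cells and 644 and 276 CPM in smooth muscle-like cells. It was lower both in dividing (416 and 210 CPM) and in other (144 and 83.1 CPM) stromal-like cells. Cdkn1a was not lower in every class, with 848 and 932 CPM in mesothelial-like and 26.6 and 35.0 CPM in epithelial-like cells. A link between Cdkn1a and the mitosis genes was not tested.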

How the data were processed

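Enzymatically dissociated uteri were captured with the 10x Genomics 3' kit, per the labels' protocols. The submitters' processing notes name Cell Ranger 7.0.0 and mm10. Values in the authors' deposited files are UMI counts that were not normalized, and no barcode held under 500 UMIs.

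Filters of 1000 UMIs, 500 genes and a mitochondrial share of 15% left 7783 and 7065 barcodes. Scrublet in scanpy 1.11.5 removed 396 and 278 doublets (5.09% and 3.93%) at an expected rate of 0.06. That rate was set after the default called none in the DOX plus AMH library.

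A cell's class score was the mean over its markers of log-normalised counts, each divided by the 90th percentile of cells with a UMI and capped at 1. A class needed a score of 0.2 and a lead of 0.1, and cells above 5% haemoglobin UMIs were left out. Scoring was set after marker scores were seen. Within a lead of 0.2 lay 1.73% and 3.94% of stromal-like, 6.92% and 7.02% of smooth muscle-like, 4.72% and 13.4% of epithelial-like and 39.5% and 37.5% of pericyte-like cells, and between 5.70% and 20.3% of the other classes compared. Median scores were 0.627 for stromal-like cells (highest other list 0.127), 0.732 for smooth muscle-like cells (0.208), 0.715 for epithelial-like cells (0.0327) and 0.573 for pericyte-like cells (0.279), with 0.634 to 0.721 in the others (0.325 at most).

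UMIs were summed per class and library, and genes with at least 20 UMIs over both were called at 2-fold. Poisson intervals of CPM, binomial intervals of ratios and Clopper-Pearson intervals of shares are exact, at 95%. Without replicates no test was made. The ratio and its interval were tested on simulated counts. The 32 genes, the other gene lists and the markers were chosen with earlier results of these data known. All 32 genes are named in stromal-like cells. Elsewhere the set was the 3 with the most UMIs, the highest and lowest ratio, and Mki67, Cdk1 and Ckap2. Not all of that set is named for every class. Further genes named were chosen after their values were seen. TMM factors came from edgeR 4.0.16. Alternatives covered scaling, filters, doublets, class rule, depth, count minimum and the dividing-cell rule.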

Additional observations from a re-analysis of the deposited data

Results flagged for a closer look

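The summed level pointed in opposite directions in different cell classes. The summed level of the 32 genes in DOX plus AMH, set against DOX, gave log2 ratios of -1.38 for stromal-like cells and -2.02 for smooth muscle-like cells, and of 0.21 for epithelial-like cells of the same libraries. With 1 library per group this difference between classes was not tested. The share of cells with a UMI did not follow the sum in epithelial-like cells, where it was lower for 24 of the 32 genes. Lower shares were not counted over all genes. In this class 5 cells held 37.3% of the UMIs in DOX plus AMH against 20.4% in DOX. The epithelial-like sum stayed above 0 under every scaling, filter, doublet and class alternative run for it.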

How the results depend on the processing

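No paired analysis was possible because each group is 1 library. Values are log2 ratios of the summed level unless a share is named, and the cause of each change was not tested. TMM gave -1.58 for stromal-like, -2.13 for smooth muscle-like, 0.16 for epithelial-like and 0.29 for mesothelial-like cells, shifting the mesothelial-like ratios by 0.17 and the macrophage or monocyte-like ones by -0.11. CPM without mitochondrial and ribosomal protein genes gave -1.43 in stromal-like cells, and keeping doublets gave -1.32. Without a cell filter smooth muscle-like cells had -1.96 and epithelial-like cells 0.26. A stricter filter gave -2.19 for smooth muscle-like, 0.15 for vascular endothelial-like and 0.13 for epithelial-like cells. Classes from clusters gave -2.14 for smooth muscle-like, -2.41 for pericyte-like (12 genes at least 2-fold lower), -0.34 for vascular endothelial-like (3 genes), 0.26 for mesothelial-like and -0.49 for macrophage or monocyte-like cells (6 genes). A stricter marker score gave -1.91 for smooth muscle-like, 0.17 for vascular endothelial-like, -0.059 for mesothelial-like and -0.33 for macrophage or monocyte-like cells. In pericyte-like cells 2 genes were at least 2-fold lower with a minimum of 50 UMIs and 15 with a minimum of 1 UMI in each library. The 29 genes gave -1.90 for stromal-like, -3.04 for smooth muscle-like, -1.10 for pericyte-like and 0.23 for mesothelial-like cells. Leaving out the cell with the most UMIs in each library gave -1.44, -2.14, -1.13, 0.20 and 0.13 for stromal-like, smooth muscle-like, pericyte-like, vascular endothelial-like and epithelial-like cells. Both of these were added after seeing the data.

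Thinning to 2000 UMIs gave Mki67 shares of 2.69% and 0.518% in stromal-like cells and dividing shares of 4.07% and 0.627%, with 3.45% and 0.610% for smooth muscle-like cells. At 8000 UMIs these were 5.29% and 1.68%, 10.1% and 5.90%, and 13.4% and 9.08%. With at least 2 of the 55 genes the dividing shares were 15.7% and 12.0% for stromal-like and 18.2% and 15% for smooth muscle-like cells, and the levels inside them had ratios of -1.48 and -3.06. With at least 5 the shares were 3.98% and 0.697%, and 2.84% and 0.0955%. The ratios were then 0.11 inside and -0.25 outside for stromal-like cells, and 0.75 inside for smooth muscle-like cells, where Ckap2 turned to 0.076. Of 525 ratios of single genes under the alternatives, 501 kept their sign, as did all 287 of those at least 2-fold apart. Counting error sets the limit for genes of few UMIs, and the spread between animals was not measured.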

Other observations

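Some classes were too small to compare. Lymphatic endothelial-like cells (50 and 33) had sums of 2246 and 464 CPM, lymphocyte-like cells (41 and 60) 4044 and 825 CPM, and dendritic-like cells (47 and 24) 1864 and 1633 CPM. Squamous-like cells had 2137 CPM in the 6 cells of DOX and 770 CPM in the 400 cells of DOX plus AMH, of which 7.57% of the 383 deep enough held at least 3 of the 55 other mitosis genes. In the 446 and 450 cells with no class the sums were 1458 and 995 CPM.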
